A study of Homo sapiens with 12 samples.

Results

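Open chromatin was examined at 6 human collagen genes, COL1A1, COL1A2, COL3A1, COL5A2, COL4A1 and COL4A2, in ARPE-19 and H7 cells. The ARPE-19 line came from human retinal pigment epithelium and was grown in medium with fetal bovine serum. The H7 line, of human embryonic stem cells, was grown in mTeSR Plus. Accessibility was measured by ATAC-seq, in which the transposase Tn5 inserts sequencing adapters into open DNA so that many insertions at one place show up as a peak. Each line had 3 libraries of 500000 cells and no treatment, and 1 peak list per library. A peak belonged to a collagen gene if it lay within 50 kb of the gene's interval on the genome build hg19, and it was counted once, for the nearest gene. This gave 114 of the 170706 listed peaks. Merged across libraries wherever they overlapped, they formed 58 of 84664 regions. All 6 genes had at least 1 peak. Whether replicates are separate cultures is not stated in the labels. The p-values therefore reflect the spread of these libraries alone, which may be technical. With 3 libraries against 3, the smallest two-sided p of the exact permutation test is 0.1, so no comparison of library values could pass a threshold of 0.05.

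Collagens are triple helices of 3 chains. COL1A1 and COL1A2 encode the chains of type I collagen, the main fibril of bone, skin and tendon. COL3A1 encodes the chain of type III collagen, a fibril of elastic tissues such as vessel walls, and COL5A2 encodes a chain of type V collagen, which takes part in the start of fibril assembly. COL4A1 and COL4A2 encode the chains that make the network of type IV collagen found in nearly all basement membranes. The retinal pigment epithelium rests on such a membrane as part of Bruch's membrane. Cells of this epithelium that lose their epithelial state are known to secrete fibrillar collagens. COL4A1 and COL4A2 lie head to head and are transcribed away from a shared promoter, and on hg19 their starts were 135 bases apart. COL3A1 and COL5A2 are also neighbours, with 19168 bases between their intervals.

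The shared type IV promoter is shown because the nearest peaks on either side of it differed between the lines. Sequences of 2 of the 6 genes, COL4A1 and COL4A2, matched in the RefSeq promoter table, which is of GRCh38.p14 and runs from 250 bases before to 50 bases after the gene's start. Capitals mark every CCAAT and GGGCGG on either strand. The first window is on the minus strand at chr13:110307108-110307407, and the second is on the plus strand at chr13:110307034-110307333.

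COL4A1: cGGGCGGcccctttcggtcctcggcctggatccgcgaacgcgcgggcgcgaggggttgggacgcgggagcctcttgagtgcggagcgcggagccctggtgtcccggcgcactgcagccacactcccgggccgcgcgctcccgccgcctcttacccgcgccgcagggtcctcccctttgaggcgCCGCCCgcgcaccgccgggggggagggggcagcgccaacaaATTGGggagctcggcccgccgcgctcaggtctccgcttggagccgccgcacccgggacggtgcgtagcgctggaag

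COL4A2: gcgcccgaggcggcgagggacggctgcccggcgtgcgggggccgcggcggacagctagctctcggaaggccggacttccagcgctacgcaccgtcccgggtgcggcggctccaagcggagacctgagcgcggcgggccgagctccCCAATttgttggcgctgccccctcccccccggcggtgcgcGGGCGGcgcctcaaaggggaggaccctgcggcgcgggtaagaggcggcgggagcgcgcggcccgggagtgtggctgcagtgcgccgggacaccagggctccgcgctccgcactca

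The windows of COL4A1 and COL4A2 share 226 bases, read from opposite strands, so the CCAAT box between the starts is 1 and the same in both. The sequence is rich in G and C, at 76.7% for COL4A1 and 77.7% for COL4A2, where the median of the 35116 promoters of the table is 58.7%. Each of the 2 windows holds 45 CG pairs, against a median of 14. CCAAT, the letters bound by NF-Y, was found on at least 1 strand in 34.6% of all promoters. GGGCGG, the letters of a GC box, was found in 45.0%. Neither window held TATAAA, which 11.5% of all promoters held. Both windows also lacked TGACTCA, an AP-1 motif found in 4.95%. They lacked GGAATG, a TEAD motif found in 14.0%, and the E-box CANNTG, found in 68.7%. All were searched on both strands, and no match overlapped another in these windows. No match says only that these letters are not in these windows.

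In no library was a peak called on this promoter. The nearest ARPE-19 peaks lay inside COL4A1, and their edges were 2.61, 2.61 and 2.59 kb from the COL4A1 start in replicates 1, 2 and 3. The nearest H7 peaks lay inside COL4A2 at 80.9, 72.8 and 148.9 kb from the COL4A1 start. The first called site of ARPE-19 was thus close to the promoter in all 3 libraries, and that of H7 was far from it in all 3. Over the autosomes, lists held 1.35 to 1.63 peaks per 100 kb in ARPE-19 and 0.288 to 0.512 in H7. Longer distances are therefore likely in H7 at any site. Distances from other sites were not analysed here, so the contrast has no background. With the 8622 peaks of highest -log10 p from each library, COL4A1 had 0, 0 and 1 peaks in replicates 1, 2 and 3 of either line. The ARPE-19 peak near its start was then lost in all 3 libraries. The COL4A1 peak kept in ARPE-19 replicate 3 was the one from 110778699 to 110779204, 22.1 kb past the end of the gene.

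Total reads are unknown, and relative depth was read from the commonest background against which peaks were called. This genome-wide background averaged 0.455 ± 0.029 expected reads in ARPE-19 libraries, and it averaged 0.626 ± 0.031 in H7 libraries (SD, n = 3, exact permutation p = 0.1). Whether mitochondrial reads or duplicates enter this background is not known, so it may not track depth over the nuclear genome. The ARPE-19 lists were longer, with 40110 to 48460 peaks against 8622 to 15351 in H7, a 3.53-fold difference of the means. At the genome-wide background, a called peak had at least 4 summit reads in the ARPE-19 lists and 5 or 6 in the H7 lists. A peak that is missing below was not called at this depth, which does not show that the chromatin was closed. Markers of the labelled cell types and other genes of collagen assembly were not analysed here, for want of hg19 gene models.

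Peaks around the collagen genes were more numerous in ARPE-19. Its libraries had 26, 31 and 30 peaks within 50 kb of the 6 genes, and the H7 libraries had 11, 8 and 8. The mean was 29.0 ± 2.65 for ARPE-19, against 9 ± 1.73 for H7 (SD, n = 3). The difference was 20 peaks (SE 1.83, exact permutation p = 0.1), and the groups did not overlap. The peaks covered 8608, 7925 and 8888 bases in ARPE-19 and 2739, 2546 and 1686 bases in H7, a difference of 6150 bases (SE 432, exact permutation p = 0.1).

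That excess was of the size of the difference between whole lists. The ratio of the means was 3.22 at the collagen genes, beside 3.53 over all peaks. Per 1000 listed peaks, the collagen genes had 0.585, 0.773 and 0.619 in ARPE-19 and 0.717, 0.584 and 0.928 in H7. These shares overlapped between the lines, with a difference of -0.084 (SE 0.116, exact permutation p = 0.7). When the same number of peaks, the 8622 with the highest -log10 p, was taken from each library, the order turned. ARPE-19 then had 2, 3 and 3 collagen peaks and H7 had 4, 5 and 8, a difference of -3 (exact permutation p = 0.1). Over the 6 genes together, both lines had more peaks than on average over the autosomes. Here the density per 100 kb is used because windows differ in length. The density at the 6 genes was 1.70, 2.24 and 1.80 times that of the autosomes in ARPE-19 and 2.10, 1.71 and 2.71 times in H7. Not every gene shared this. The ARPE-19 mean was 0.851 per 100 kb at COL1A1, below the autosomal 1.35 to 1.63, and 1.46 at COL1A2, within that range. In H7 the means were 0 at COL1A1 and 0.160 at COL4A1, below the autosomal 0.288 to 0.512. Windows around other genes were not analysed here.

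**Figure D1:**
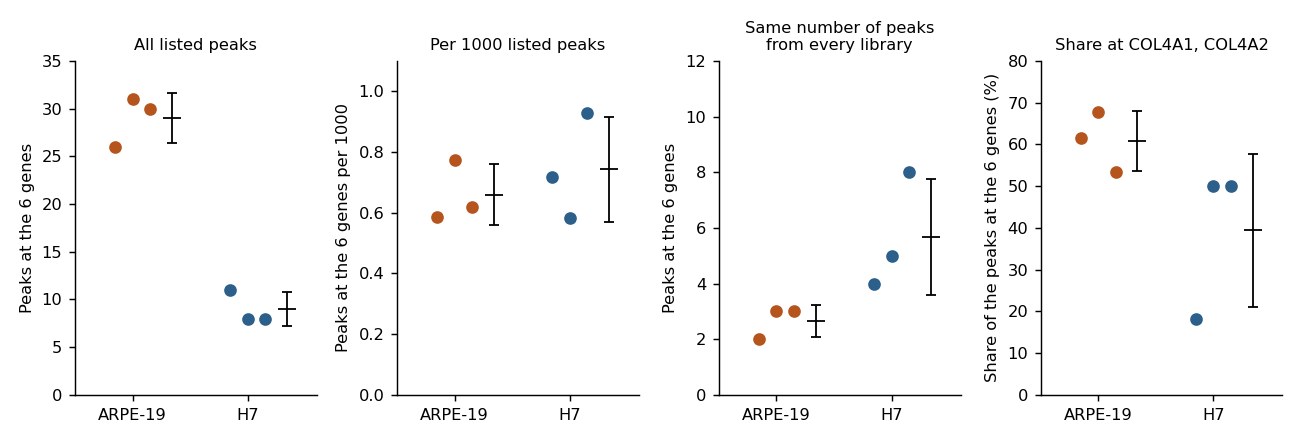
Peaks at the 6 collagen genes in each library (points) with the mean and SD (black, n = 3), as a count, per 1000 listed peaks, as a count from lists of equal length, and as the share at COL4A1 and COL4A2. ARPE-19 counts of 26 to 31 lie above H7 counts of 8 to 11, the shares per 1000 overlap, and with lists of equal length H7 counts of 4 to 8 lie above ARPE-19 counts of 2 to 3.

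The genes differed in how much of the excess they carried. In 3 of the 6 genes, COL1A1, COL4A1 and COL4A2, every ARPE-19 library had more peaks than every H7 library. Over windows of 200 kb of the autosomes that hold a peak this was so in 54.1%, so the count of 3 is near the background. In no gene did every H7 library exceed every ARPE-19 library, which was so in 2.02% of those windows. COL4A1 had 8, 10 and 10 peaks in ARPE-19 and 0, 0 and 1 in H7, a difference of 9 (SE 0.745, exact permutation p = 0.1). COL4A2 had 8, 11 and 6 peaks in ARPE-19 and 2, 4 and 3 in H7, a difference of 5.33 (SE 1.56, exact permutation p = 0.1). COL5A2 had 6, 5 and 8 peaks in ARPE-19 and 6, 3 and 4 in H7, so its groups overlapped, with a difference of 2 (SE 1.25, exact permutation p = 0.3). It was 1.17 without ARPE-19 replicate 3 and 1.33 without H7 replicate 2. The type I and type III genes had few peaks in either line. COL1A1 had 1 peak in each ARPE-19 library and none in H7. COL1A2 had 2, 1 and 3 peaks in ARPE-19 and 2, 1 and 0 in H7, and COL3A1 had 1, 3 and 2 in ARPE-19 and 1, 0 and 0 in H7. With the same number of peaks from each library, COL4A1 had 0, 0 and 1 peaks in ARPE-19 and 0, 0 and 1 in H7, and the differences at COL1A2, COL5A2 and COL4A2 turned to -0.67, -1.33 and -1.

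**Figure D2:**
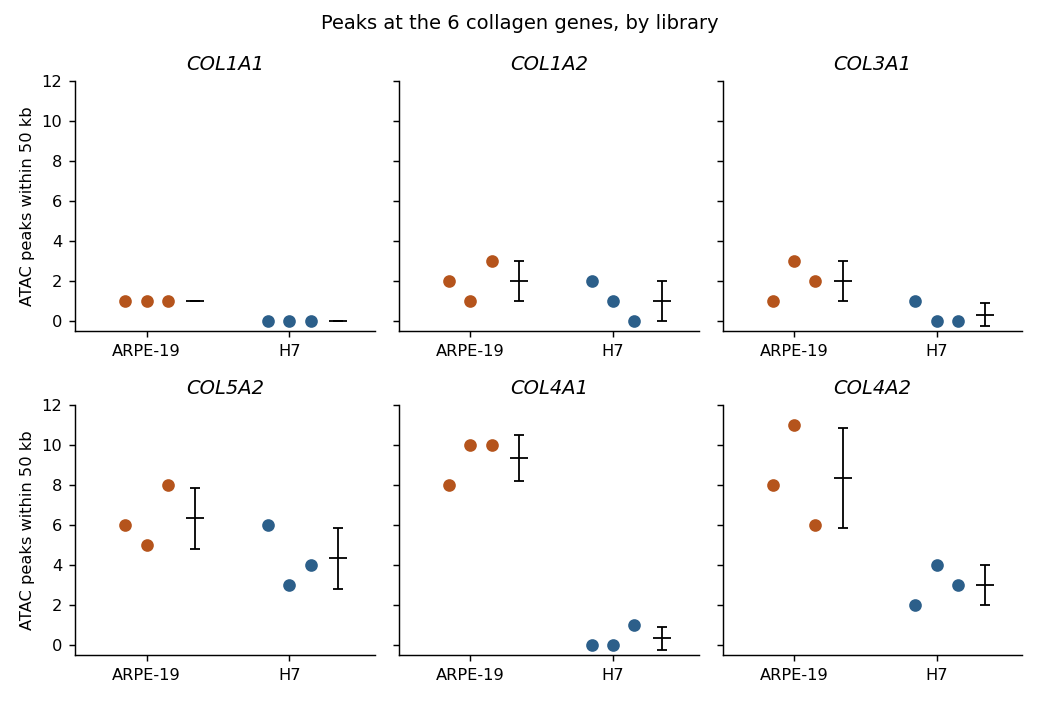
Number of ATAC peaks assigned to each collagen gene in each ARPE-19 and H7 library (points), with the mean and SD beside them (black, n = 3). COL4A1 has 8 to 10 peaks in ARPE-19 libraries and 0 to 1 in H7 libraries, while COL5A2 has 5 to 8 in ARPE-19 and 3 to 6 in H7.

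Per 100 kb of window, the order in ARPE-19 was COL4A1 with 4.48 ± 0.55 peaks, COL4A2 with 3.26 ± 0.98, COL5A2 with 3.05 ± 0.74, COL3A1 with 2.04 ± 1.02, COL1A2 with 1.46 ± 0.73 and COL1A1 with 0.851 in each library (SD, n = 3). Each gene's range over the libraries overlapped that of the next in this order. In H7 the order was COL5A2 with 2.09 ± 0.74, COL4A2 with 1.17 ± 0.39, COL1A2 with 0.732 ± 0.732, COL3A1 with 0.34 ± 0.589, COL4A1 with 0.160 ± 0.277 and COL1A1 with 0 (SD, n = 3). Neighbours overlapped here too. COL4A1 was thus first of the 6 genes in ARPE-19 and last but one in H7. The type IV genes held 61.5%, 67.7% and 53.3% of the collagen peaks in ARPE-19 and 18.2%, 50% and 50% in H7. The difference was 21.5 percentage points (SE 11.4, exact permutation p = 0.1). This measure was added once the lists were known. It was 10.9 points without H7 replicate 1 and 6.11 points with the same number of peaks from each library.

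Among the fibrillar genes, COL1A1 had a single region. It lay 5.42 kb past the end of the gene, on chromosome 17 from 48255570 to 48256040, and had 12, 11 and 17 summit reads in ARPE-19 replicates 1, 2 and 3. No H7 library had a peak within 96 kb of the COL1A1 start. The next protein-coding gene on that side in the RefSeq table of GRCh38.p14 is SGCA, and whether the region lies within it was not analysed here.

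COL1A2 had an ARPE-19 region and an H7 region close together upstream of the gene. The ARPE-19 region, on chromosome 7 from 94003598 to 94003838, had its mean summit at -20.2 kb from the COL1A2 start and had 10, 12 and 11 summit reads. The H7 region, from 94004699 to 94005169, began 860 bases after it and had 15 and 14 summit reads in replicates 1 and 2, with no peak in replicate 3. Its strength, by -log10 q, stood on average at percentile 83.0 of these 2 lists. The ARPE-19 region stood at 57.6 of its longer lists. The -log10 q values themselves were 6.49, 8.94 and 8.94 in the ARPE-19 region and 7.22 and 7.05 in the H7 region. No ARPE-19 library had a peak in this H7 region, and no H7 library had one in the ARPE-19 region.

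COL3A1 had 1 region called in all ARPE-19 libraries, on chromosome 2 from 189866887 to 189867278 within the gene, with 9, 9 and 11 summit reads. The other 4 regions of COL3A1 were each called in 1 library, 3 in ARPE-19 and 1 in H7, with 6 to 9 summit reads.

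COL5A2 had regions of both kinds, interleaved along the gene and its upstream flank. Of its 16 regions, 4 were ARPE-19-only, meaning called in 3 of 3 ARPE-19 and 0 of 3 H7 libraries. The converse held for 2, the H7-only regions. The strongest ARPE-19 region by rank, on chromosome 2 from 189951460 to 189951775, had 12, 17 and 12 summit reads and lay 92.8 kb into COL5A2. At 82.5 kb into COL5A2 another, from 189961445 to 189962097, was uneven, with 17 and 18 reads in replicates 1 and 3 and 5 in replicate 2. The H7 region from 190007791 to 190008256, 36.3 kb into COL5A2, had 10, 13 and 11 summit reads. The H7 region from 190082421 to 190082771, 37.8 kb upstream of the COL5A2 start, had 8, 16 and 16 summit reads, so its replicate 1 was the lowest. A further H7 region, from 190026790 to 190027080, had 8 and 9 reads in replicates 2 and 3 and ended 1517 bases before an ARPE-19 region with 17, 9 and 12 reads. Inside COL5A2, 3 of 5, 2 of 4 and 4 of 6 ARPE-19 peaks in replicates 1, 2 and 3 lay between the start and the midpoint. In H7 it was 4 of 4, 2 of 2 and 3 of 3. The RefSeq table of GRCh38.p14 gives COL5A2 a longer span, 409 kb against the 148 kb used here, with predicted transcripts, so a region placed upstream may lie within that longer gene.

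**Figure D3:**
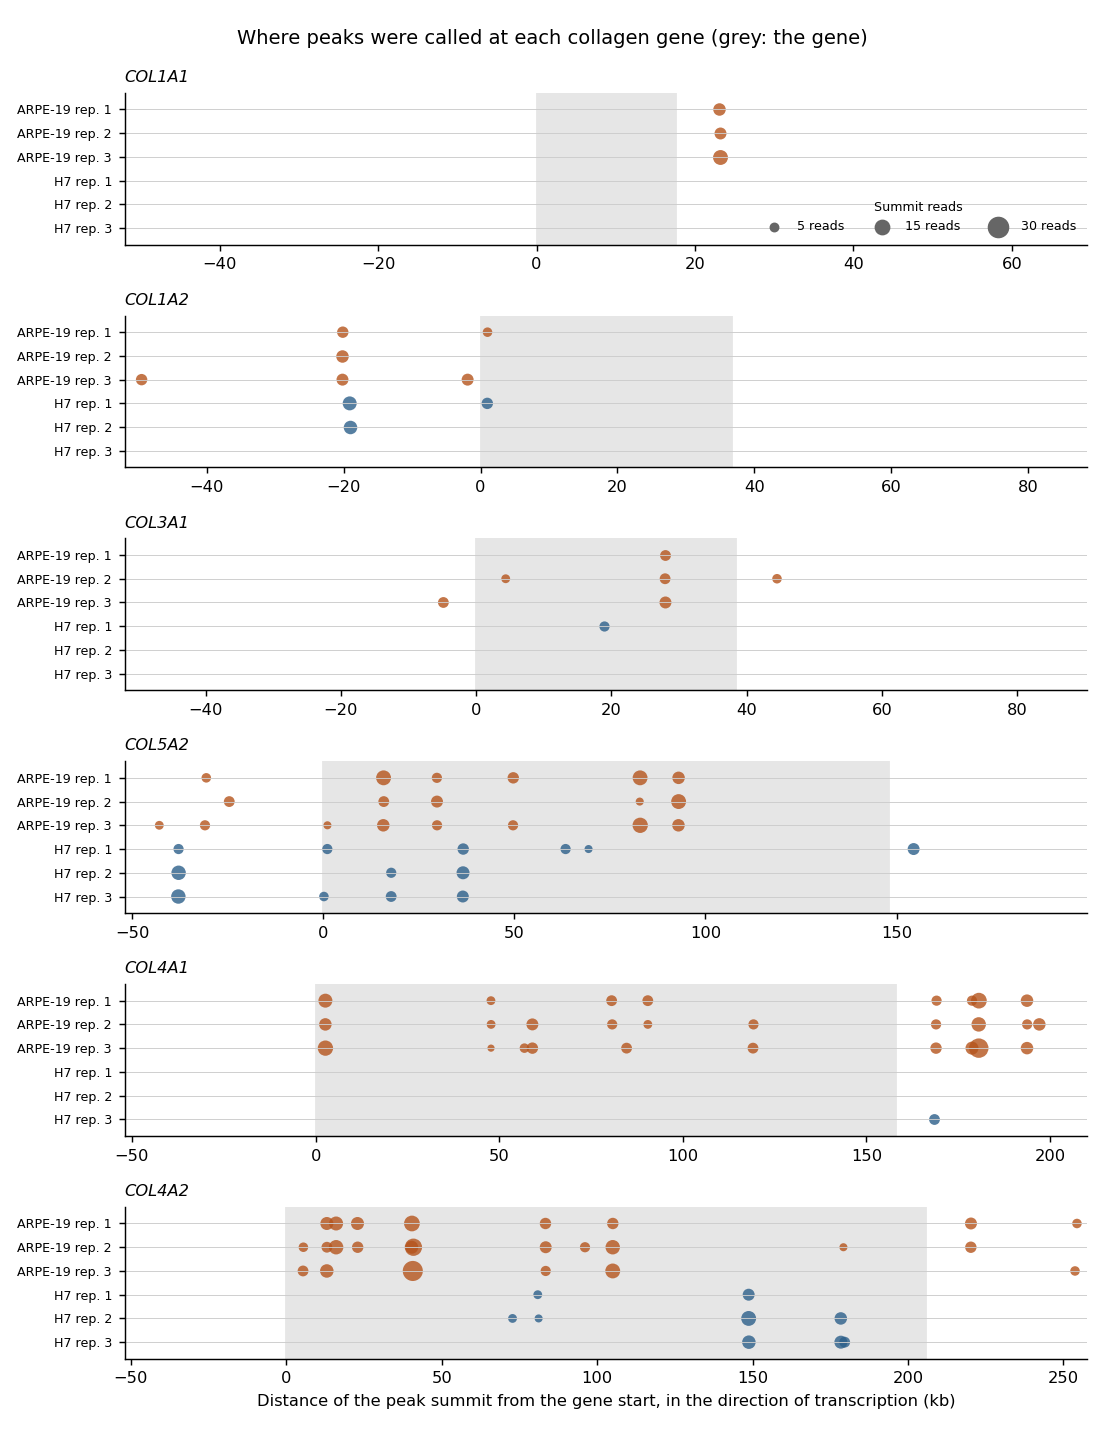
Position of every called peak at the 6 collagen genes, as the distance of its summit from the gene start in kb along the direction of transcription, in one row per library (ARPE-19 above H7), with the point area proportional to the summit reads. The gene is grey. COL4A1 has ARPE-19 peaks along the gene and past its end and 1 H7 peak, whereas COL5A2 and COL4A2 have peaks of both lines, which overlap in 1 region near the COL5A2 start and otherwise do not.

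At COL4A1, 13 regions were called, all of them with an ARPE-19 peak and 1 also with an H7 peak. The region nearest to the start, on chromosome 13 from 110956581 to 110956906, had 15, 12 and 18 summit reads in ARPE-19. The strongest region by rank, from 110778699 to 110779204, lay 22.1 kb past the end of COL4A1 and had 19, 16 and 29 reads. A region 35.4 kb past the end, from 110765682 to 110765892, had 12, 8 and 12. Most of the other regions inside COL4A1 were called in 1 or 2 libraries. The lowest of those called in all ARPE-19 libraries, from 110911631 to 110911871, had 6, 6 and 4 reads. The 1 H7 peak, in replicate 3 with 9 reads, was joined to ARPE-19 peaks by an overlap of 63 bases, and its summit was 440 bases from the closest ARPE-19 summit. With a -log10 q of at least 5, COL4A1 had 3, 5 and 8 peaks in ARPE-19 and none in H7.

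At COL4A2 most ARPE-19 peaks inside the gene lay between its start and its midpoint, 5 of 6, 8 of 10 and 4 of 5 in replicates 1, 2 and 3. In H7 it was 1 of 2, 2 of 4 and 0 of 3, so a majority past the midpoint was seen in replicate 3 alone. The strongest ARPE-19 region at the 6 genes by reads, on chromosome 13 from 110999886 to 111000706, lay 40.3 kb into COL4A2 and had 19, 23 and 31 summit reads. It held 4 peaks, and the summits of the strongest peak of each library spread over 479 bases, so the reads are not all from 1 site. Its fold was 6.65, 8.05 and 9.69, below the 8.70, 8.23 and 11.3 of the COL4A1 region from 110778699. Another ARPE-19 region of COL4A2, from 111064537 to 111064952 at 104.9 kb, had 10, 16 and 17 summit reads. The H7 region from 111108324 to 111108587, 148.7 kb into COL4A2, had 11, 17 and 14 summit reads, and the nearest ARPE-19 peak was 30.2 kb away. A second H7 region, from 111137937 to 111138326, had 12 and 13 reads in replicates 2 and 3, with no peak in replicate 1. These positions were noticed in the lists and were not tested.

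**Figure D4:**
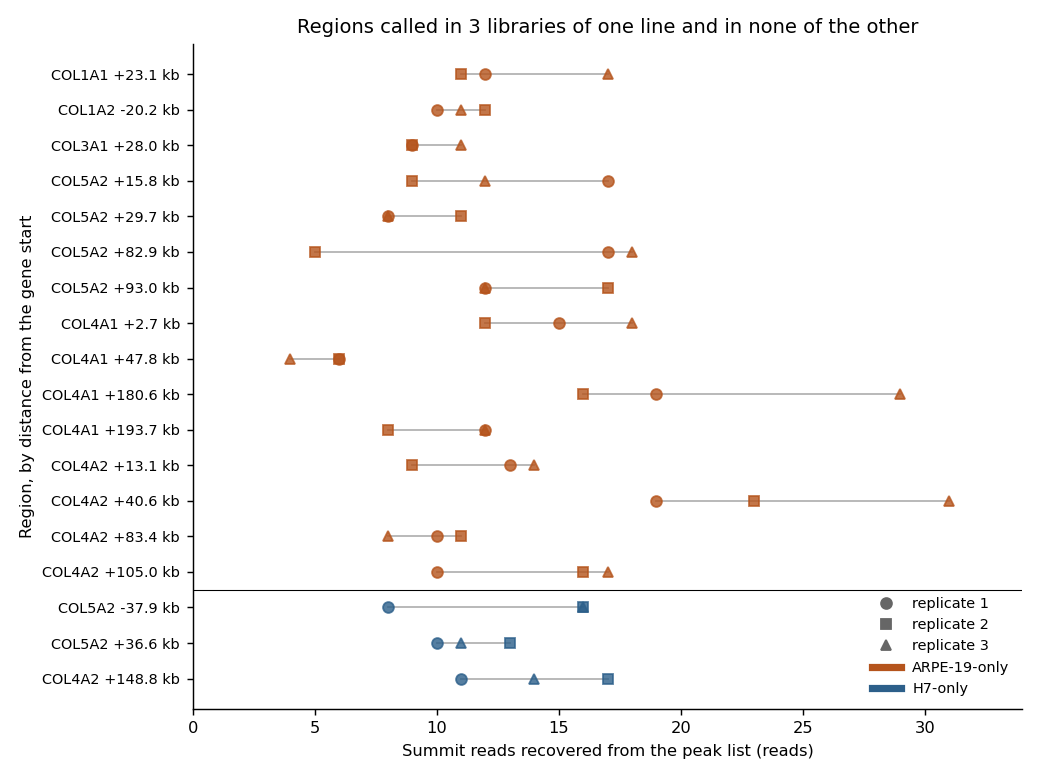
Summit reads in each library of the regions called in 3 of 3 libraries of ARPE-19 or H7 and in 0 of 3 of the other, named by gene and by the distance of the mean summit from the gene start. The 15 ARPE-19-only regions have 4 to 31 reads and the 3 H7-only regions 8 to 17.

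No gene start had a peak in every library of a line. Within 1 kb of a start, 0 of 6 genes had a peak in every ARPE-19 library and 0 of 6 in every H7 library. The share over all gene starts of the genome was not analysed here, so these counts have no background. COL1A2 had a region from 94024836 to 94025077, 963 bases into the gene, with 7 reads in ARPE-19 replicate 1 and 10 in H7 replicate 1. COL5A2 had a region from 190043507 to 190043859, with 5 reads in ARPE-19 replicate 3 and 8 in H7 replicate 1. It also had one from 190044242 to 190044480, with 7 reads in H7 replicate 3. In the start regions of COL1A2 and COL5A2 that were called in both lines, the ARPE-19 and H7 summits were 33 and 27 bases apart, closer than the 440 bases at COL4A1. No peak was called within 1 kb of the starts of COL1A1, COL3A1, COL4A1 and COL4A2 in any library.

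Of the 58 collagen regions, 15 were ARPE-19-only. This is 25.9%, beside 26.0% of all regions of the genome. The H7-only class held 3 of 58 regions, or 5.17%, beside 1.82% of all regions, and all 3 lay at COL5A2 or COL4A2. No collagen region was called in all 6 libraries, a class that made up 1.82% of all regions, and 3 of 58 were called in both lines, beside 8.51%. Calls recurred between replicates about as often as elsewhere. Of 43 regions with an ARPE-19 peak, 16 were called in all ARPE-19 libraries, where the share over the genome was 40.5%. Of 18 regions with an H7 peak, 3 were called in all H7 libraries, where it was 13.1%. The ARPE-19-only class spanned all 6 genes, with 1 region each at COL1A1, COL1A2 and COL3A1 and 4 each at COL5A2, COL4A1 and COL4A2. Among peaks whose -log10 q reached 5, 10 of 35 collagen regions were ARPE-19-only, or 28.6%, beside 36.0% of all regions. None was then H7-only, beside 1.32%, and each of the 3 H7-only regions had 1 library with a -log10 q under 5. With lists of equal length, 0 of 16 collagen regions were ARPE-19-only, beside 14.7%, and 2 were H7-only, or 12.5%, beside 6.74%. Without H7 replicate 1 there were 5 H7-only regions, but a peak in replicates 2 and 3 then sufficed. The share over all regions was not analysed for this setting.

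The collagen regions were of moderate strength. The 15 ARPE-19-only regions stood at a median percentile of 58.3 within their lists (range 11.4 to 82.2), where the median of all 22042 such regions was 64.5. The medians of their summit reads were 11 to 12 in the 3 libraries, against 13 to 15 over all such regions. The 3 H7-only regions stood at percentiles of 66.4 to 76.1, where the median of all 1537 was 70.3. Summits of different libraries fell close together, with a median spread of 51.0 bases in the ARPE-19-only collagen regions and 67.0 bases over all such regions.

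Over all collagen peaks of a library, the median width was 270, 247 and 238 bases in ARPE-19 and 244, 306 and 205 in H7, with equal means of 252 bases (exact permutation p = 1). Over whole lists it was 269 ± 7.09 bases for ARPE-19, against 226 ± 2.89 for H7 (SD, n = 3). The median strength percentile of the collagen peaks was 45.6, 42.4 and 47.7 in ARPE-19 and 36.6, 76.9 and 50.5 in H7 (exact permutation p = 0.7). H7 replicate 2 was high here and decided the sign, since without it the difference of -9.44 became 1.67. Inside the genes lay 57 of 87 ARPE-19 peaks and 20 of 27 H7 peaks. Upstream lay 10 ARPE-19 and 5 H7 peaks, and downstream 20 ARPE-19 and 2 H7 peaks. The starts of COL4A1 and COL4A2 are 135 bases apart, so the nearest-gene rule left these genes almost no upstream window. All upstream peaks were thus at the fibrillar genes, which had 4 ARPE-19 peaks and 1 H7 peak downstream. The type IV genes had 16 ARPE-19 peaks and 1 H7 peak downstream. The peaks at the limit of 50 kb were an ARPE-19 replicate 3 peak of 10 reads 49.5 kb from COL1A2 on the inside, and ARPE-19 peaks of 14, 10 and 18 reads in replicates 1, 2 and 3 at 53.9 to 54.0 kb from COL4A1 on the outside.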

How the data were processed

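ATAC-seq peak lists of 3 ARPE-19 and 3 H7 libraries were used, and the 6 samples of 4C were left out. MACS2, bedtools and hg19 are named per the submitters' processing notes. Their versions, the aligner, duplicate removal and any Tn5 read shift are not given in the sources used here; an unapplied shift would displace summits slightly. Besides positions, each deposited list holds a score tied to -log10 q, a fold (a ratio to local background), -log10 p and -log10 q. These are the authors' values within 1 library. Peaks were called per library.

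Positions are 1-based. Gene intervals were those of the rule for hg19, and strands were set from general knowledge of the genes. Summit reads and local background were solved from the authors' fold, taken as reads plus 1 over background plus 1, and from the Poisson -log10 p. The deposited -log10 p was recovered within 0.001 for 99.99% of nuclear peaks in the list with the lowest share. Intervals of counting error were not computed, and reads may include duplicates. No pair of lists shared more than 48 identical intervals. Library values were compared by exact permutation of the 20 assignments, two-sided. In these tests the libraries were not paired by replicate number. The tests, merging and read recovery were tested on simulated data. Regions named were those within 1 kb of a start, the 3 highest by mean percentile of -log10 q per gene among those in 3 libraries of a line, and those in at least 2 H7 libraries; others in the text were chosen after their values were seen. The planned test of summit reads was not run, since no region at these genes was called in all 6 libraries. The genes and lists were chosen with earlier results of these data known. Scripts ran in Python 3.11.15 (pandas 2.3.3, scipy 1.17.1, numpy 2.4.6).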

Additional observations from a re-analysis of the deposited data

How the results depend on the processing

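Values are ARPE-19 minus H7 where a difference is given. The excess of ARPE-19 peaks at the 6 genes kept its direction under 10 of 11 alternatives, most of which could not have turned it. The replicate block leaves the difference as it is, and leaving out 1 library cannot reverse groups that do not overlap. Those that could have turned it were a -log10 q of at least 5 and windows of 10 and 100 kb. Their differences were 15.7, 14.0 and 27.7 peaks. The exception kept equally many peaks per library, which by construction shortens all lists but that of H7 replicate 3. Under it the differences were -3 peaks in all, 0 at COL1A1, -0.67 at COL1A2, 0 at COL3A1, -1.33 at COL5A2, 0 at COL4A1 and -1 at COL4A2. That in covered bases was then -488, that in the strength percentile 16.0, and no ARPE-19-only region was left. With a -log10 q of at least 5, no H7-only region was left. When a library was left out, only the remaining libraries had to meet the rule of a class. Without 1 library at a time there were 3 to 5 H7-only regions, 0 to 1 gene starts with a peak in every H7 library (1, COL5A2, without H7 replicate 2), differences of -0.163 to 0.0088 per 1000 listed peaks (above 0 without H7 replicate 3) and of -18.5 to 1.67 in the strength percentile (above 0 without H7 replicate 2). A window of 10 kb gave a strength difference of 2.55, and one of 100 kb gave 1 region in all 6 libraries. With 2 of 3 libraries as the rule 26 regions were ARPE-19-only and 6 were H7-only. Within 5 kb, 2 gene starts had a peak in every ARPE-19 library, those of COL4A1 and COL4A2, through 1 and the same region. The cause of these changes was not tested. Same-numbered libraries of the lines did not deviate together (Pearson r of -0.0046, -0.0099 and 0.017 over 12750 windows). This cannot show whether they were prepared together. With the replicate block, the difference of 20 peaks had an exact sign-flip p of 0.25, the smallest that 3 pairs allow. Neither design could pass the threshold of 0.05, so the block says nothing about stability. The share at the type IV genes, and the strength and width at 10 kb, were added after the lists had been seen. Depth limits the weakest peaks, which had 4 reads.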
